A study of Homo sapiens with 4 samples.

Results

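RPE65 and 8 other genes of retinoid handling, LRAT, STRA6, RDH10, RDH11, DHRS3, CRABP2, RARA and RARB, were followed in MHCC97H cells, a human hepatocellular carcinoma line. These 9 genes were taken from a table of 61541 gene IDs, and each had a row. RPE65 was chosen by its measured counts, for its large rise in shUBXN1 over shCon in these same libraries, so its values are given as a description without a test. The other 8 were listed as its partners in retinoid metabolism and were tested in a model fitted across all genes.

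The study sequenced RNA from 4 libraries of this line: 2 labelled shCon, with the genotype control, and 2 labelled shUBXN1, with the genotype UBXN1 knockdown, made with shRNA against UBXN1. The series' design text speaks of transfection, and the study's methods of lentiviral delivery of shRNA. UBXN1 is a ubiquitin-binding adaptor protein. No time after transfection, drug or clone is given for either group in the sources used here, nor is which of the study's shRNAs was sequenced or whether the libraries came from separate cultures, so the p-values measure the spread between these libraries, which may be technical.

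Vitamin A circulates as retinol bound to RBP4 and TTR and enters many cells through STRA6. Inside the cell, LRAT turns retinol into storage esters, and dehydrogenases turn retinol into retinal, from which retinoic acid is made. Retinoic acid is carried to the nucleus by CRABP2, where it binds the receptors RARA, RARB and RARG paired with retinoid X receptors, and CYP26 enzymes break it down. RPE65 is the isomerase of the visual cycle: in the retinal pigment epithelium it takes the esters that LRAT makes and releases 11-cis-retinol. Liver is the main store of vitamin A, held mostly in hepatic stellate cells, where LRAT is abundant.

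Total counts were 23373700 to 27380508 per library. The targeted gene, UBXN1, had 67.1 and 77.3 CPM (counts scaled to library size, with TMM factors) in shCon and 16.8 and 18.5 in shUBXN1, a log2 fold change of -2.03 (SE 0.0963, adjusted p = 9.98e-10, edgeR). Knockdown went with wide change: of 16863 genes tested, 56.2% passed an adjusted p of 0.05, 28.0% higher and 28.2% lower in shUBXN1. By the second rule used here, a fold change of 2 with an unadjusted p under 0.05, 17.9% passed, 11.8% higher and 6.09% lower. The median log2 fold change of all tested genes was 0.016. The label of a liver cell was checked against 18 hepatocyte markers. KRT8 and KRT18 were abundant, at mean TPM (transcript abundance, corrected for gene length and library size) of 4053 and 1302 in shCon, ALB was low at 15.4 TPM, and GPC3 was at 0 in all 4 libraries.

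Retinoic acid receptors bind DNA at paired copies of a short element, and the pair spaced by 5 bases, DR5, is the classical response element. DR5 pairs were looked for on both strands of RefSeq promoters (GRCh38.p14, from 250 bases before to 50 after each start), each copy read as AGGTCA or as one of its variants AGTTCA and also GGGTCA and also GGTTCA. They were found in 31 of 35116 promoters (0.0883%). Among the members, 8 of 9 had a promoter in that table (no entry for RDH10) and RARB alone held a DR5. CYP26A1, the retinoic acid hydroxylase, also held one. Pairs spaced by 1 or 2 bases, found in 0.131% and 0.0399% of promoters, were in none of the 8. The elements are shown in capitals below because these genes are the members of the pathway whose promoters carry the letters of the response element; RPE65 is shown for its own start, which held no such pair. The RARB stretch is chr3:25428203-25428232, plus strand, with the element 53 to 37 bases before the RefSeq start. The CYP26A1 stretch is chr10:93073796-93073825, plus strand, with the element on the opposite strand, 90 to 74 bases before the start. The RPE65 stretch is chr1:68449955-68450054, minus strand, the 100 bases before its start.
RARB: cgggtagGGTTCACCGAAAGTTCActcgca
CYP26A1: ttaaagaTGAACTTTGGGTGAACTaattgt
RPE65: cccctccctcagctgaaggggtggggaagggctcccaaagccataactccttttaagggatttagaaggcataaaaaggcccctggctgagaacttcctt
A match is a description of letters and not a bound site; the RARB and CYP26A1 stretches also lie in first exons of longer GENCODE transcripts of the same genes.

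RPE65 (ENSG00000116745, chr1:68428822-68449954, minus strand, GRCh38) was near absent in control cells and readily detected after knockdown. The shCon libraries held 3.22 and 8.34 expected counts, the shUBXN1 libraries 350.65 and 259.25. In CPM these were 0.121 and 0.355 against 14.2 and 11.1, so the groups lay far apart. The mean rose from 0.238 ± 0.166 to 12.6 ± 2.19 CPM (SD, n = 2), 53.1 times the control mean, and the fitted log2 fold change was 5.81. Counts summed over each group gave a ratio of 52.9, with a 95% counting interval of 30.1 to 103.0 that covers counting error only. It passed the filter on low counts only through the shUBXN1 libraries. The size of the change rested on few control reads: the log2 fold change was 5.19 without shCon replicate 1 and 6.73 without shCon replicate 2. No exon of RPE65 overlaps another gene in GENCODE. Its counts are not whole numbers, and how fractions of a count arose is not given in the sources used here.

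After knockdown RPE65 stood near the middle of the genes tested. Its level per length was 11.8 and 8.56 TPM in shUBXN1, and its mean there stood at the 47.0th percentile of the genes tested. Other genes of the retinal pigment epithelium, 25 in the marker list, were mostly absent. TYR, OTX2, RAX, RGR and SLC45A2 were at 0 in all 4 libraries, and RLBP1, the retinal-binding protein that works beside RPE65, had 0 counts in 3 libraries and 3 counts in shUBXN1 replicate 2. Of the 7 markers tested, 4 were called higher, 1 lower and 2 neither (all genes: 28.0% higher, 28.2% lower), and 3 of the 7 stood under the filter level in at least 1 library. MITF, the pigment cell transcription factor, rose from 13 and 8 counts to 72 and 33 (log2 fold change 2.36). SERPINF1, which encodes a secreted serpin, rose by a log2 fold change of 1.07 and MERTK, a phagocytosis receptor, by 0.36. LHX2, a homeobox gene, went from 15 and 10 counts to 31 and 37, RDH5 was lower, and BEST1 and PMEL did not pass. The summed level of the list was 52.6 to 53.3 TPM in shCon and 83.1 to 89.4 TPM in shUBXN1. Most of that sum was SERPINF1 and MERTK; the other 23 markers summed to 9.74 to 9.78 TPM in shCon and 8.76 to 10.6 TPM in shUBXN1. The part of these markers in the RPE65 values was not tested.

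Set side by side per length, CRABP2 was the most abundant of the 9 genes in both groups and RPE65 or LRAT the least. In shCon the mean TPM fell in the order CRABP2 117 ± 5.78, DHRS3 96.1 ± 1.05, RDH10 83.7 ± 0.242, RDH11 61.4 ± 2.90, STRA6 58.8 ± 0.261, RARA 30.5 ± 0.922, RARB 20.4 ± 0.645, LRAT 1.75 ± 0.311 and RPE65 0.182 ± 0.124 (SD, n = 2). RDH11 and STRA6 were neighbours within the spread of RDH11. In shUBXN1 the order was CRABP2 289 ± 29.9, DHRS3 92.1 ± 2.94, RDH11 65 ± 0.502, RDH10 47.9 ± 0.853, RARA 33.1 ± 1.69, STRA6 31.0 ± 5.12, RARB 15.1 ± 0.814, RPE65 10.2 ± 2.29 and LRAT 0.704 ± 0.125 TPM. RARA and STRA6 overlapped there. RPE65 thus moved from the last place to above LRAT, the enzyme that supplies its substrate.

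**Figure D1:**
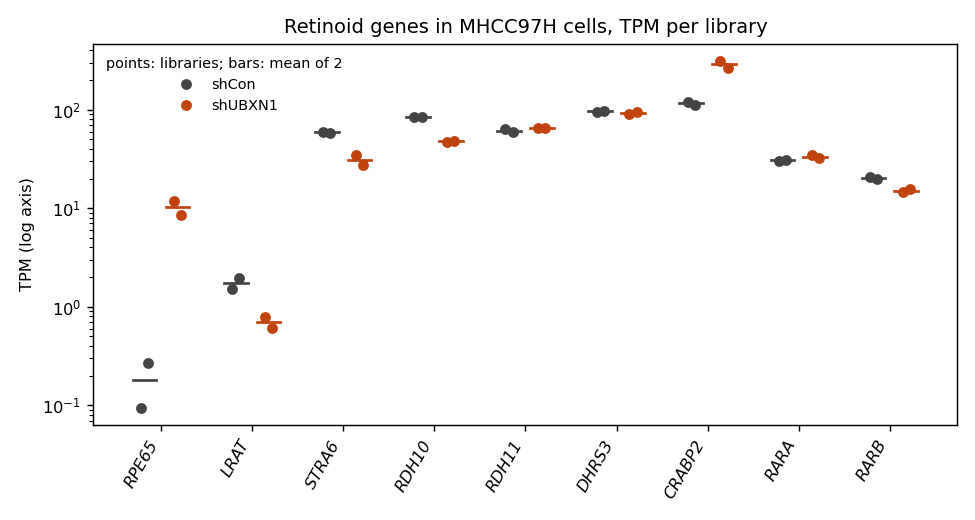
TPM (log axis) of the 9 genes in each library, points for the 2 shCon and 2 shUBXN1 libraries and bars for their means. RPE65 goes from 0.182 to 10.2 TPM and CRABP2 from 117 to 289, while LRAT, STRA6, RDH10 and RARB lie lower in shUBXN1 and RDH11, DHRS3 and RARA stay close to their control levels.

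Of the 8 other members, 1 was called higher, 4 lower and 3 neither at an adjusted p of 0.05, so 62.5% were called against 56.2% of all genes. By the fold rule 1 was higher and 1 lower. The median log2 fold change of the 8 was -0.30, against 0.016 for all genes tested. STRA6 of uptake, LRAT of esterification, the retinol dehydrogenase RDH10 and the receptor RARB were lower. CRABP2, a retinoic acid carrier, was higher, and RDH11, DHRS3 and RARA did not pass the test. These are single genes, and other genes of the same roles, given below, went both ways. In bulk RNA, fewer cells with a transcript and less transcript per cell cannot be told apart.

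STRA6 (ENSG00000137868, chr15:74179466-74212267, minus strand), the membrane receptor that takes up retinol from RBP4, fell close to 2-fold. It had 74.3 and 76.1 CPM in shCon and 41.0 and 34.9 CPM in shUBXN1. Both knockdown libraries lay below both controls. The log2 fold change was -0.99 (SE 0.0867, adjusted p = 3.24e-07, edgeR). An antisense gene, CCDC33, covers 6.77% of its exon bases, and reads of such pairs cannot be told apart without strand.

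LRAT (ENSG00000121207, chr4:154626945-154753120, plus strand), the acyltransferase that makes retinyl esters, was lower in shUBXN1 and the least abundant of the 8. It had 53.01 and 62 counts in shCon and 24 and 19 in shUBXN1, or 1.99 and 2.64 against 0.970 and 0.812 CPM. The groups did not overlap, and the log2 fold change was -1.37 (SE 0.370, adjusted p = 0.00593). This call rested on shCon replicate 2, without which the log2 fold change was -1.17 (adjusted p = 0.0677). LRAT also marks hepatic stellate cells. Of 17 markers of those cells, 7 were tested, with 3 higher (COL1A1, LHX2 and NES), 1 lower (LRAT itself) and 3 neither (all genes: 28.0% higher, 28.2% lower); 4 of the 7 stood under the filter level in at least 1 library, and PDGFRA and HAND2 were at 0 in all libraries. Their summed level was 65.3 to 66.2 TPM in shCon and 81.7 to 88.3 TPM in shUBXN1, nearly all of it NES. Without NES the sum was 4.41 to 5.01 TPM in shCon and 6.73 to 7.10 TPM in shUBXN1. That sum still holds LRAT, at 1.525 and 1.964 TPM in shCon and 0.792 and 0.615 TPM in shUBXN1. COL1A1 passed the filter on low counts only through shUBXN1. The part of the other markers in the LRAT values was not tested.

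RDH10, RDH11 and DHRS3, short-chain dehydrogenases that move retinoids between retinol and retinal, gave 1 fall and 2 differences that did not pass the test. RDH10 (ENSG00000121039, chr8:73294602-73325281, plus strand), which oxidizes retinol towards retinoic acid, had 163 and 168 CPM in shCon and 86.4 and 95.5 CPM in shUBXN1. It fell by 0.86 on the log2 scale (SE 0.0765, adjusted p = 3.58e-07), without overlap between groups. Its antisense gene RDH10-AS1 covers 5.21% of its exon bases. RDH11 (ENSG00000072042, chr14:67676800-67695793, minus strand), which mainly reduces retinal, had 79.1 and 76.3 CPM in shCon and 75.7 and 82.4 CPM in shUBXN1. These groups overlapped. The log2 difference was 0.024, with a 95% interval from -0.14 to 0.19 (adjusted p = 0.813), and 6.29% of its exon bases are shared with another gene on its strand. DHRS3 (ENSG00000162496, chr1:12567910-12618210, minus strand), which reduces retinal back to retinol and is induced by retinoic acid in many cells, had 103.1 and 107.9 CPM in shCon and 91.4 and 103.0 CPM in shUBXN1. The log2 difference was -0.12, with a 95% interval from -0.29 to 0.05 (adjusted p = 0.217); without shUBXN1 replicate 2 it was -0.22 and passed (adjusted p = 0.00869).

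CRABP2 (ENSG00000143320, chr1:156699606-156705816, minus strand), the protein that delivers retinoic acid to its receptors, was the member that rose among the 8. It had 61.3 and 58.9 CPM in shCon and 147.5 and 137.2 CPM in shUBXN1. Both knockdown libraries lay at more than 130 CPM and both controls under 62 CPM. The mean was 2.37 times the control mean, a log2 fold change of 1.24 (SE 0.0757, adjusted p = 9.46e-09). Its relative CRABP1 was at 0 counts in all 4 libraries.

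Of the receptors, RARB was lower and RARA did not pass the test. RARB (ENSG00000077092, chr3:24687887-25597932, plus strand), itself a classical retinoic acid target, whose promoter holds the DR5 printed above, had 32.1 and 31.7 CPM in shCon and 21.1 and 24.5 CPM in shUBXN1. It fell by 0.49 on the log2 scale (SE 0.0990, adjusted p = 0.000793), to 71.5% of the control mean. RARA (ENSG00000131759, chr17:40309180-40357643, plus strand), had 29.5 and 31.7 CPM in shCon and 31.8 and 31.9 CPM in shUBXN1. Its log2 difference was 0.06, with a 95% interval from -0.13 to 0.25 (adjusted p = 0.591). In RARA, 21.4% of exon bases lie opposite antisense genes. The difference between the responses of the receptors was not tested.

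The rest of the pathway was read from 61 further genes, sorted by role. Of these, 10 were at 0 in all 4 libraries and 41 were tested, with 12 higher, 16 lower and 13 neither at an adjusted p of 0.05. That is 68.3% called beside 56.2% of all genes, and the median log2 fold change was -0.098, also with CYP26A1 set at its bound. By the fold rule 2 were higher, CYP26A1 among them, and 4 lower (BCO1, TTR, RDH5 and AKR1B10). Of the 41, 5 stood above the filter level in fewer than 4 libraries. Without shCon replicate 2, the number called lower was 10.

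**Figure D2:**
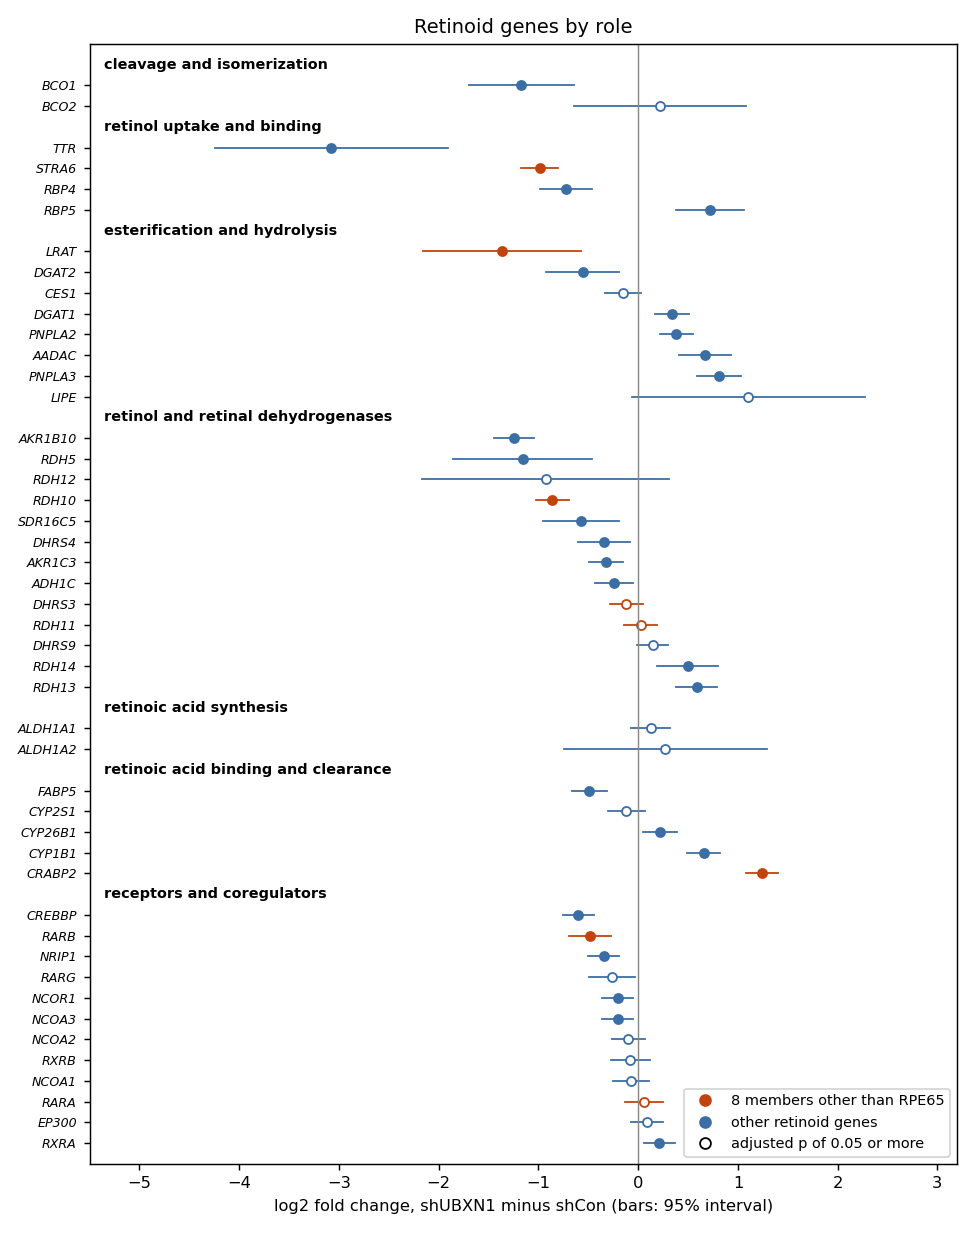
Log2 fold change, shUBXN1 minus shCon, with its 95% interval, for tested retinoid genes by role; orange marks the 8 members other than RPE65, blue the other genes, and open circles an adjusted p of 0.05 or more. RPE65 and CYP26A1 are left out, the first because it was chosen for its rise and the second because it had no counts in shCon. LRAT at -1.37 and CRABP2 at 1.24 lie at opposite ends of the members.

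RPE65 belongs to the carotenoid oxygenase family, and of its relatives BCO1 was lower and BCO2 did not pass the test. BCO1, which cleaves beta-carotene to retinal, had 6.04 and 7.40 CPM in shCon and 2.30 and 3.67 CPM in shUBXN1. It fell by 1.17 on the log2 scale (SE 0.246, adjusted p = 0.00100), with 15.2% of its exon bases under an antisense gene. BCO2, which cleaves carotenoids off centre, had 49 and 28.7 counts in shCon and 59.0 and 28 in shUBXN1. The BCO2 groups overlapped (log2 difference 0.22, adjusted p = 0.669).

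Among the genes of retinol transport, 4 of 8 were tested, 2 higher and 2 lower (all genes: 28.0% higher, 28.2% lower). RBP4, the plasma carrier of retinol, had 17.2 and 17.6 CPM in shCon and 10.2 and 10.9 CPM in shUBXN1 (log2 fold change -0.72, SE 0.119, adjusted p = 0.000136). TTR, its partner in plasma, went from 38 and 34 counts to 5 and 3, a fitted log2 fold change of -3.08; it passed the filter on low counts only through shCon. Both are hepatocyte genes and are themselves on the list of hepatocyte markers. Of the 15 markers tested 10 were lower, RBP4 and TTR among them, 2 higher and 3 neither (all genes: 28.2% lower, 28.0% higher). Of the 15, 2 stood under the filter level in at least 1 library. Among the lower were ALB at a log2 fold change of -1.97 and FGB at -4.02. The summed level of all 18 markers was 5476 to 5525 TPM in shCon and 4675 to 5090 TPM in shUBXN1, most of it KRT8 and KRT18. The other 16 markers, RBP4 and TTR included, summed to 145.5 to 146.3 TPM in shCon and 83.5 to 86.9 TPM in shUBXN1. The part of the other markers in the carrier values was not tested. RBP5 rose by a log2 fold change of 0.72 (adjusted p = 0.00153), although 51.9% of its exon bases lie under the antisense gene C1RL-AS1.

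Of the genes that make or split retinyl and other esters, 7 of 10 were tested, 4 higher and 1 lower. That is 71.4% called, beside 56.2% of all genes. PNPLA3, a lipase able to act on retinyl esters, had 19.4 and 17.8 CPM in shCon and 34.7 and 30.5 CPM in shUBXN1. Its log2 fold change was 0.81 (SE 0.102, adjusted p = 1.19e-05). AADAC, an esterase, rose by 0.67 (adjusted p = 0.000290), PNPLA2, the main triglyceride lipase, by 0.38 (adjusted p = 0.000717) and DGAT1, an acyltransferase that can also esterify retinol, by 0.34 (adjusted p = 0.00265). PNPLA2 and DGAT1 did not pass after removal of the trend with GC content (adjusted p = 0.0599 and 0.0872). DGAT2, which makes triglycerides, was lower at -0.56 (adjusted p = 0.0128), a call lost without shUBXN1 replicate 1 (-0.41, adjusted p = 0.0562) and with DESeq2 (adjusted p = 0.0532). The most abundant gene of the group, the carboxylesterase CES1, stood at 1119 TPM in shCon and 1047 TPM in shUBXN1 (log2 difference -0.15, adjusted p = 0.134). CES1 passed without shUBXN1 replicate 2 (-0.23, adjusted p = 0.00106).

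Beyond RDH10, the dehydrogenases and reductases held the most abundant gene of the retinoid lists in TPM. This was AKR1B10, an aldo-keto reductase that reduces retinal and is known to be high in liver cancer, which had 3689 and 3776 CPM in shCon and 1499 and 1654 CPM in shUBXN1. It fell by 1.24 on the log2 scale (SE 0.0940, adjusted p = 7.50e-08). AKR1C3 fell by 0.32 (adjusted p = 0.00360), a call lost without shCon replicate 1 or 2 (adjusted p = 0.0553 and 0.0619). RDH5, the 11-cis-retinol dehydrogenase that acts after RPE65 in the eye, had 3.24 and 3.53 CPM in shCon and 1.92 and 1.11 CPM in shUBXN1. Its log2 fold change was -1.16 (SE 0.325, adjusted p = 0.00732), but 68.2% of its exon bases are shared with another gene on its strand. In the group as a whole 10 of 16 were tested, 2 higher and 6 lower (all genes: 28.0% higher, 28.2% lower). RDH13 and RDH14 were higher, at 0.59 (adjusted p = 0.000110) and 0.50 (adjusted p = 0.00832), the latter not without shUBXN1 replicate 2 (0.31, adjusted p = 0.0780). SDR16C5 was lower at -0.57 (adjusted p = 0.0133), a call lost without shCon replicate 2 (adjusted p = 0.0855). The remaining DHRS4 and ADH1C, named after their values were seen, were lower at -0.34 and -0.24, and both calls were lost without shCon replicate 2 (adjusted p = 0.244 and 0.248) and by total count scaling. ADH1C also lost its call without shUBXN1 replicate 1 (adjusted p = 0.18). With DESeq2 the calls of SDR16C5, DHRS4 and ADH1C were lost as well (adjusted p = 0.0570, 0.103 and 0.0764). The AKR1, DHRS4 and ADH1 genes have close copies that can share reads, so their values are uncertain.

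Retinoic acid synthesis showed no called change. ALDH1A1, the retinal dehydrogenase, had 1812 and 1820 CPM in shCon and 1863 and 2093 CPM in shUBXN1, a log2 difference of 0.12 (adjusted p = 0.267). Without shUBXN1 replicate 1 that value was 0.20 and passed (adjusted p = 0.00140), as it did by total count scaling and by limma on log2(TPM + 1). ALDH1A2 was scarce, with 15 to 23 counts in the 4 libraries. ALDH1A3 and ALDH8A1 were too low to test.

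Clearance and binding genes included the largest fold among the other genes tested. CYP26A1, which degrades retinoic acid, had 0 counts in both shCon libraries and 19 and 17 counts in shUBXN1. Against a floor of 3 counts over the control group it was at least 12.5-fold higher, at 0.746 CPM over both shUBXN1 libraries, and it passed the filter only through them, so no p is given. Of its exon bases 25.3% are shared with another gene on its strand. CYP26B1, its more abundant relative, had 45.0 and 46.7 CPM in shCon and 50.8 and 55.8 CPM in shUBXN1 (log2 fold change 0.22, adjusted p = 0.0330). The CYP26B1 call did not hold with DESeq2 (adjusted p = 0.0970) or after GC correction (adjusted p = 0.119). That small difference was lost without shCon replicate 1, shCon replicate 2 or shUBXN1 replicate 2 (adjusted p = 0.194, 0.174 and 0.177). CYP1B1, another retinoid oxidase, rose by 0.66 (SE 0.0762, adjusted p = 5.04e-06). FABP5, which carries retinoic acid to PPAR delta instead of to the retinoic acid receptors, had 55.9 and 60.4 CPM in shCon and 40.0 and 42.8 CPM in shUBXN1. FABP5 fell by 0.49 (SE 0.0812, adjusted p = 0.000138) where CRABP2 rose by 1.24; both are relative to library totals, and the difference between them was not tested. CYP2S1, second to FABP5 in TPM among the other genes of this group, differed by -0.12 (adjusted p = 0.256), and passed without shUBXN1 replicate 2 (-0.27, adjusted p = 0.00387).

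Of 12 other receptors and coregulators, 11 were tested, 1 higher and 5 lower. The share called, 54.55%, was close to the 56.2% of all genes. CREBBP, a coactivator with acetyltransferase activity, fell by 0.60 (SE 0.0728, adjusted p = 7.95e-06), and NRIP1, a retinoic acid induced corepressor, by 0.35 (adjusted p = 0.00101). NCOR1 and NCOA3, the latter named after its values were seen, were lower at -0.21 and -0.21. Both calls were lost without shCon replicate 1 (adjusted p = 0.148 and 0.195), without shCon replicate 2 (adjusted p = 0.231 and 0.204) and by total count scaling. RXRA, the main partner receptor in liver, was higher at 0.21 (adjusted p = 0.0205), but not without shCon replicate 1 or 2 (adjusted p = 0.114 and 0.335) or after GC correction (adjusted p = 0.345).

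Known targets of retinoic acid were read as a further list of 24 genes, 5 of them members. Of 22 tested, 9 were higher, 7 lower and 6 neither at an adjusted p of 0.05, with a median log2 fold change of 0.12. Over all genes tested 28.0% were higher and 28.2% lower, with a median of 0.016. Of the 22, 3 stood under the filter level in at least 1 library. The 19 that are not members gave 8 higher, 4 lower and 5 neither among 17 tested, with a median of 0.45. By the fold rule 6 of the 22 were higher and 1 lower (all genes: 11.8% and 6.09%). Classical targets stood on both sides, with CRABP2 and RARRES1 higher and STRA6, LRAT and RARB lower. CYP26A1 went from 0 counts in shCon to 19 and 17 in shUBXN1.

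ICAM1, an adhesion receptor, had 117 and 112 CPM in shCon and 240 and 252 CPM in shUBXN1. Its log2 fold change was 1.10 (SE 0.0742, adjusted p = 2.50e-08). RARRES1, a retinoid-induced membrane protein, rose by 1.03 (SE 0.102, adjusted p = 9.83e-07), from 19.6 and 19.0 to 36.2 and 42.9 CPM. RARRES2, which encodes the adipokine chemerin, rose by 0.77 (SE 0.0903, adjusted p = 5.70e-06). RAI1 was lower at -0.35 (adjusted p = 0.00107), beside NRIP1. Of the genes outside the naming rule, GPRC5A was higher at 0.45 and HOXA4 at 1.73, the latter from 9 and 4 counts to 31 and 11; HOXA4 passed the filter only through shUBXN1. The HOXA4 call was lost without shCon replicate 1, shCon replicate 2 or shUBXN1 replicate 1 (log2 fold changes 2.31, 1.33 and 0.85). It was also lost with DESeq2, limma-voom and limma on log2(TPM + 1) (adjusted p = 0.114, 0.0528 and 0.0813). MEIS2 and MEIS1 were lower at -0.41 and -0.63. Neither call held by total count scaling or by limma on log2(TPM + 1), and that of MEIS1 was lost with DESeq2 (adjusted p = 0.13). Without shUBXN1 replicate 1 neither passed (adjusted p = 0.102 and 0.116), and MEIS1 was also lost without shCon replicate 1 (adjusted p = 0.259).

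**Figure D3:**
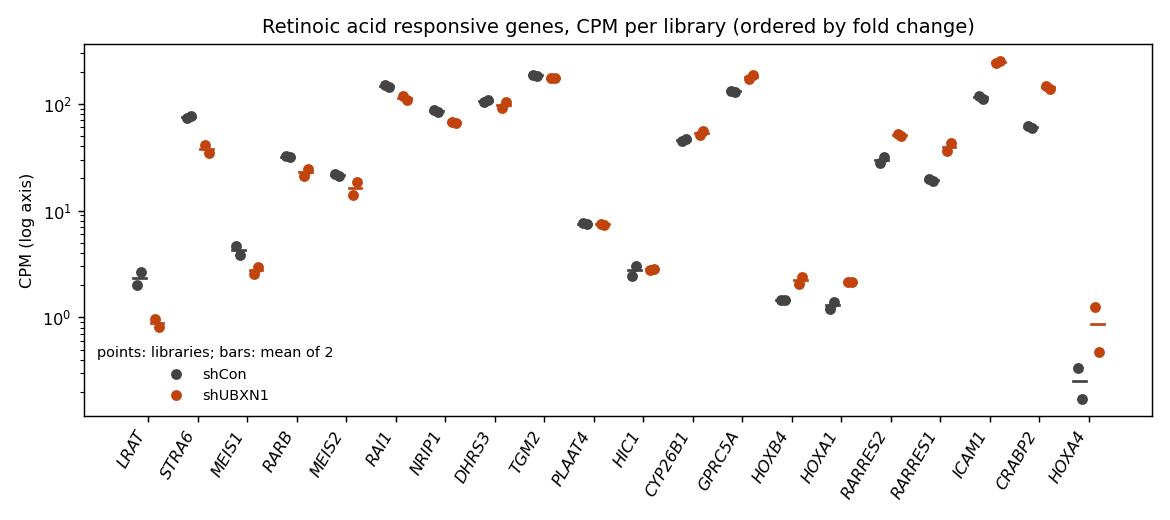
CPM (log axis) of tested retinoic acid responsive genes in each library, ordered by fold change from lowest to highest; points are libraries and bars the means of 2. LRAT, STRA6 and RARB lie to the left with lower shUBXN1 points, and ICAM1 and CRABP2 to the right with higher ones; CYP26A1, at 0 in shCon, is left out because a log axis has no place for it.

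Genes around RPE65 on chromosome 1 were read to see whether the rise was shared along the chromosome. Within 1 Mb of its start, 29 other genes had a row and 5 passed the filter: 2 were higher, 1 lower and 2 neither. Over all genes tested 28.0% were higher and 28.2% lower, so with 5 genes the count alone says little about the region. The closest of the 5 by its start was the lncRNA gene ENSG00000233589 (chr1:68479129-68483539, plus strand), 29.2 kb upstream of RPE65 and within DEPDC1 on the other strand. It had 0.818 and 1.34 CPM in shCon and 11.3 and 13.3 CPM in shUBXN1, a log2 fold change of 3.50 (SE 0.237, adjusted p = 2.61e-08). DEPDC1, a cell division gene, went the other way, from 25.8 and 28.1 to 19.8 and 21.3 CPM (-0.39, SE 0.0999, adjusted p = 0.00420), a call lost without shCon replicate 2 (adjusted p = 0.0574). Exons of these genes overlap on opposite strands over 35.0% of the lncRNA. GADD45A, a stress-induced growth arrest gene whose start lies 764.8 kb downstream, had 22.7 and 26.0 CPM in shCon and 83.3 and 88.8 CPM in shUBXN1 (log2 fold change 1.82, SE 0.0874). Between GADD45A and RPE65, WLS, the Wnt secretion factor, and GNG12, a G protein subunit, differed by -0.04 (95% interval -0.22 to 0.15) and 0.08 (95% interval -0.08 to 0.23).

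The genes whose profile over the 4 libraries lay closest to that of RPE65 were named by Euclidean distance between log2 CPM values centred on each gene's mean. They were IGFN1 at a distance of 0.531, ENSG00000288894 at 0.809, L1CAM at 0.918, ENSG00000287725 at 1.01 and ANXA8 at 1.09, where the log2 CPM of RPE65 itself spanned 6.20. L1CAM, a neural adhesion molecule, had the most reads of them, 34 and 27 counts in shCon and 1374 and 1236 in shUBXN1. IGFN1 had 3 and 6 counts in shCon and 239 and 158 in shUBXN1. ENSG00000288894 and ENSG00000287725 had no counts in shCon. With 4 libraries in 2 groups, any gene with a rise of like size is close by this measure. None of the 5 is on the retinoid or marker lists.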

How the data were processed

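RNA of 2 shCon and 2 shUBXN1 libraries of MHCC97H cells was sequenced. The deposited table gives expected counts of the authors, without normalization, and each gene's length; 62.4% to 64.6% of the values above 0 were whole. The submitters' processing notes name HISAT2 2.0.4, StringTie 1.3.0 and GRCh37, whereas the study's methods name GRCh38; 99.7% of the gene IDs matched GENCODE release 44 (GRCh38), which gave symbols and coordinates. The counting tool, annotation and use of strand are not given in the sources used here. The labels and the study's methods name different library kits and controls.

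Expected counts were rounded. Genes were filtered with filterByExpr (0.419 CPM in 2 libraries), scaled by TMM (factors 0.968 to 1.06) and tested with the quasi-likelihood test of edgeR 4.0.16 (R 4.3.3), without a block, with Benjamini-Hochberg adjustment over 16863 genes; SE was the log2 fold change over the square root of F, with intervals from it. The study's methods name TPM and limma, so limma on log2 TPM was run as an alternative (limma 3.58.1; pseudocount 1), as was DESeq2 1.42.0. TPM was computed from the counts and deposited lengths. A call needed an adjusted p under 0.05. Replicates differed by more than sampling noise (chi-square over its degrees of freedom 3.83 and 8.42). Same-numbered libraries had deviations correlated at 0.0393, and the main fit did not pair them. With 2 libraries per group this value cannot exclude pairing.

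Members and gene lists were chosen with earlier results of these data known. Genes named were the 9 members, UBXN1, up to 4 per direction and role or responsive list by smallest p, the 2 highest in TPM per list, BCO1 and BCO2, genes within 1 Mb of RPE65 and its 5 nearest profiles; others are marked as chosen later, except markers, named to describe their lists. A few genes that the counts include are not reported here by name or plotted.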

Additional observations from a re-analysis of the deposited data

How the results depend on the processing

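No alternative reversed a direction that had been called. CRABP2, STRA6, RDH10 and RARB kept their calls in all 13 alternatives, with log2 fold changes of 1.19 to 1.33, -1.12 to -0.89, -0.95 to -0.78 and -0.61 to -0.38; RDH11 and RARA were called in none, LRAT lost its call in 1 and DHRS3 gained one in 1. The log2 fold change of RPE65 was 3.23 by limma on log2(TPM + 1), whose pseudocount compresses low values, and 5.19 to 6.73 when each library was left out in turn; with at least 10 counts in every library RPE65 was not tested. By the fold rule 1 member, 4 other retinoid genes and 1 responsive gene were lower, 2 other retinoid genes higher, and 1997 genes of all tested higher and 1027 lower, since a fold minimum removes smaller differences. Leaving out each library gave 10 to 18 other retinoid genes lower, lowest without shCon replicate 2; the cause was not tested. Total count scaling moved the median of all genes from 0.016 to 0.10 and the share of calls that were higher from 49.9% to 57.3%. With the replicate number as a block RPE65 was at 5.81, 1 member was higher and 4 lower, and 10023 genes were called in all against 9478; with 2 numbers the block is no evidence of pairing. Of 865 single-gene comparisons over 67 genes, 789 kept their side of the threshold, 55 calls were lost and 21 gained. The trend with GC content was added as an alternative after the data were seen. With 2 libraries per group, genes with few counts, such as LRAT, HOXA4 and CYP26A1, are the least certain.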
